A study of Mus musculus with 6 samples.

Results

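The dorsal side of the otic vesicle gives rise to the vestibular part of the inner ear, and its homeobox genes Dlx3, Dlx5, Dlx6, Hmx2, Hmx3, Gbx2, Msx1 and Msx2 were read here together with Lrig1 and Lrig3, which encode membrane proteins with leucine-rich repeats. These 10 genes, of 18193 named on the array, were chosen by symbol, and all 17 probe sets that the platform annotation gives to one of these symbols alone are reported. A probe set is a group of array probes that are read together as 1 value per array. Otic vesicles were dissected from E11.5 mouse embryos (day 11.5 of gestation), in 3 Mest-KO pools and 3 control pools. The Mest-KO embryos were conditional Tbx1 knockouts made with T-Cre, a recombinase that acts in the early mesoderm, so that the gene was lost from tissue around the vesicle. The controls also carried T-Cre and were heterozygous for the conditional deletion of Tbx1, so they were not wild type. Each array held RNA from both ears of 3 embryos of one genotype, and strain background was not given in the sources used here.

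As background, Wnt signals from the dorsal hindbrain and BMP signals within the epithelium pattern the upper part of the vesicle, from which the endolymphatic duct and the semicircular canals grow out. Dlx5, Hmx2, Hmx3 and Gbx2 are needed in mice for normal vestibular development, Msx1 and Msx2 are common transcriptional targets of BMP signals, and Lrig3 shapes the lateral canal by limiting Ntn1 expression. The comparison sets the level of this dorsal programme in vesicles beside Tbx1-deficient mesoderm against its level in control vesicles.

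The values are linear intensities that were deposited with a common trimmed mean of 500, and tests were made on log2 intensities after quantile normalization. Differences are Mest-KO minus control in log2 units, from limma, with n = 3 arrays per group throughout. Of the otic epithelial markers Epcam, Cdh1, Krt8, Krt18, Oc90, Fbxo2, Sox10, Eya1, Sox2 and Pax8, all 10 were above the filter, and Oc90, an otoconial protein gene of the otic epithelium, lay from 11000 to 11340 in Mest-KO and from 11149 to 12449 in control. Tbx1 itself had intensities of 910, 704 and 713 in Mest-KO and of 898, 690 and 766 in control. Since the deletion was directed at mesoderm, this probe set does not check the labels. The array Mest-KO 3 stood apart on the first principal component, at 36.4 against -10.3 to -1.77 on the other arrays, and had the highest median intensity, 91.0 against 62.1 to 71.0. The Mest-KO 1 pool had an Xist intensity of 16.1 and the control 2 pool an Eif2s3y intensity of 12.1, so the signal of one sex was missing from each. The list of periotic and arch mesenchyme markers, 14 genes with 12 above the filter, summed to intensities of 2322, 6650 and 4391 in Mest-KO and of 4493, 2915 and 1777 in control, so that this list varied within both groups.

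None of the 10 genes passed the test in either direction. In RNA from whole vesicles, a change in the share of dorsal cells and a change in RNA per dorsal cell, in either direction, cannot be told apart. limma called 0 of 12462 genes at an adjusted p under 0.05, which is 0% of the genes tested, and the smallest adjusted p among the 10 was 0.896, for Lrig3. With a variance prior that follows intensity (limma's trend option), 13 genes were called, which is 0.104% of the genes, and 0 of the 10 were among them. At an unadjusted p under 0.05, 1 of the 10 genes passed (Lrig3), against 642 genes or 5.15% of all, and 2.24% of all genes passed with a higher mean in Mest-KO. The log2 difference was above 0 for 9 of the 10 genes and below 0 for Msx2, while 49.1% of all genes lay above 0. The median of the 10 was 0.16 and that of all genes was -0.003. The 10 genes were chosen with earlier results of these data known, so the contrast with all genes is a description only. The sign count was 8 of 10 without Mest-KO replicate 3, without control replicate 1 or with the mean of each gene's probe sets, and the median of the 10 was 0.10 without control replicate 2. The groups did not overlap after normalization, with all Mest-KO values above all control values, for 2 genes (Gbx2 and Lrig3), against 4.75% of all genes. All Mest-KO values lay below all control values for 0 of the 10, against 5.86% of all genes. At the level of probe sets, 16 of the 17 passed the filter on dim signals, 0 were called (0% of 27022 probe sets), and 13 of the 16 lay above 0, against 48.3% of all. With the trend option 0 of the 16 were called, against 0.0518% of all probe sets. The unadjusted p was under 0.05 for 1 of the 16, with a higher mean in Mest-KO, against 3.98% of all probe sets and 1.73% in that direction. The groups did not overlap for 4 of the 16, against 9.38% of all probe sets. Mest-KO lay higher for 3 of them (Gbx2 1420337_at, Lrig3 1430554_at and Lrig3 1430555_s_at), against 4.18% of all. It lay lower for 1, the dim Dlx3 1422037_at, against 5.2% of all. The interval of the difference was a median of 0.29 to each side of the estimate over the 10 genes, so that shifts smaller than this were mostly not resolved with 3 arrays per group.

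**Figure D1:**
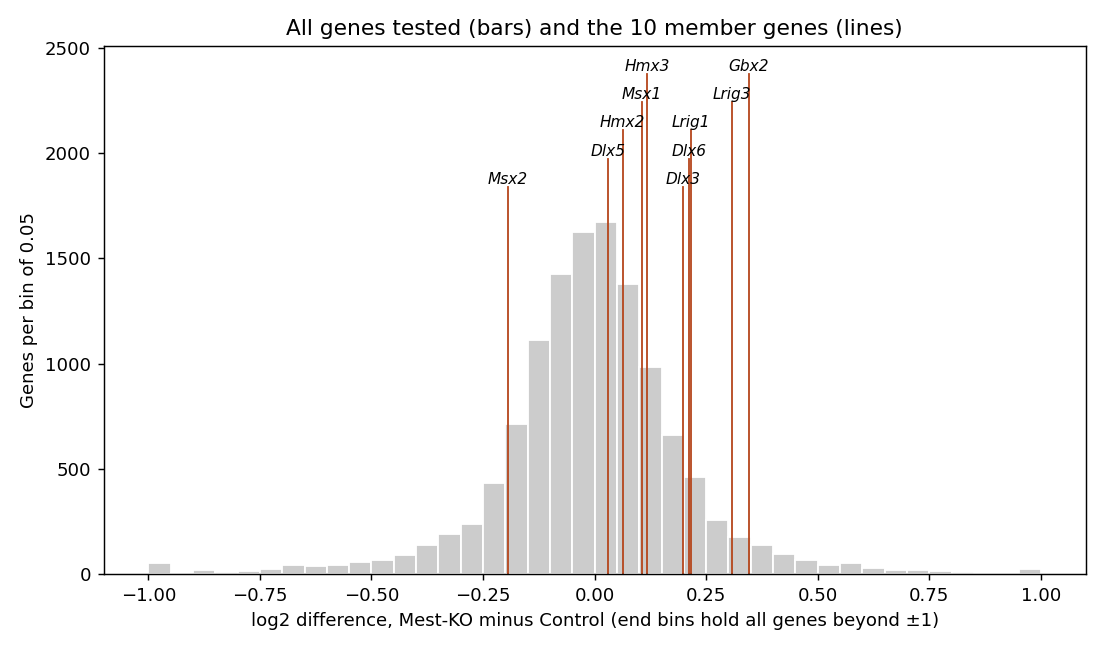
Histogram of the log2 difference (Mest-KO minus control) of all 12462 genes tested, with a line for each of the 10 dorsal genes. Gbx2 lies farthest right of the 10 at 0.34 and Msx2 farthest left at -0.19.

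The Dlx genes encode distal-less homeodomain transcription factors. Dlx5 and Dlx6 are neighbours in the genome and share enhancers, and Dlx5 is needed for canal formation. Dlx5 had intensities of 2443, 2375 and 2175 in Mest-KO and of 2161, 2329 and 2405 in control. The groups overlapped over nearly their whole range, and the means were 2331 ± 139 in Mest-KO and 2298 ± 125 in control (SD, n = 3 each). The log2 difference was 0.03 (SE 0.0879, limma adjusted p = 0.966), with a 95% interval that runs from a ratio of 0.881 to one of 1.18. Its sign was not fixed, at -0.01 without control replicate 1 and 0.07 without Mest-KO replicate 3.

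Dlx6 was read by a dimmer probe set, with intensities of 108, 105 and 102 in Mest-KO and of 82.9, 80.8 and 82.4 in control. As deposited, all 3 Mest-KO arrays lay above all 3 control arrays, as they did for 5.57% of all genes, and the spread within each group was small (SD 2.89 in Mest-KO and 1.12 in control). After quantile normalization the array Mest-KO 3 moved into the control range, at a log2 value of 6.38 against 6.80 and 6.72 on Mest-KO 1 and 2, with control values of 6.38, 6.52 and 6.37. The log2 difference was 0.21 (SE 0.131, limma adjusted p = 0.909), and with the deposited scaling alone it was 0.36, with an unadjusted p of 0.00304 and an adjusted p of 0.646. After normalization it was 0.13 without Mest-KO replicate 1 and 0.34 without Mest-KO replicate 3. Mest-KO 3 is the array with the highest median intensity, and the part of its scaling in the result was not tested. Dlx6os1, whose transcript overlaps Dlx6 from the opposite strand, differed by -0.15 (SE 0.143), with intensities of 365, 384 and 304 in Mest-KO and of 450, 346 and 351 in control.

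Dlx3, a relative that acts early in placodal ectoderm and later in skin, had 2 probe sets that pointed in opposite directions. The bright one (1450475_at) had intensities of 1006, 1026 and 837 in Mest-KO and of 782, 723 and 995 in control. The groups overlapped, since control 3 stood with the upper Mest-KO arrays. Its log2 difference was 0.20 (SE 0.153, limma adjusted p = 0.909). It was 0.11 without control replicate 2, 0.34 without control replicate 3 and 0.07 between the 2 Mest-KO and 2 control pools with signal of both sexes. The dim one (1422037_at) had intensities of 15.6, 32.4 and 57.0 in Mest-KO and of 50.3, 35.8 and 51.7 in control, values close to the filter at 34.4. There the difference was -0.72 (SE 0.303, limma adjusted p = 0.970), and after normalization all Mest-KO arrays lay below all control arrays, as did 5.2% of all probe sets. It was -0.37 without Mest-KO replicate 1, the array at 15.6, and -0.48 between the pools with both sexes. A gene value for Dlx3 therefore changes sign with the rule for probe sets, to -0.26 with the mean of both and -0.72 with the more variable one.

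**Figure D2:**
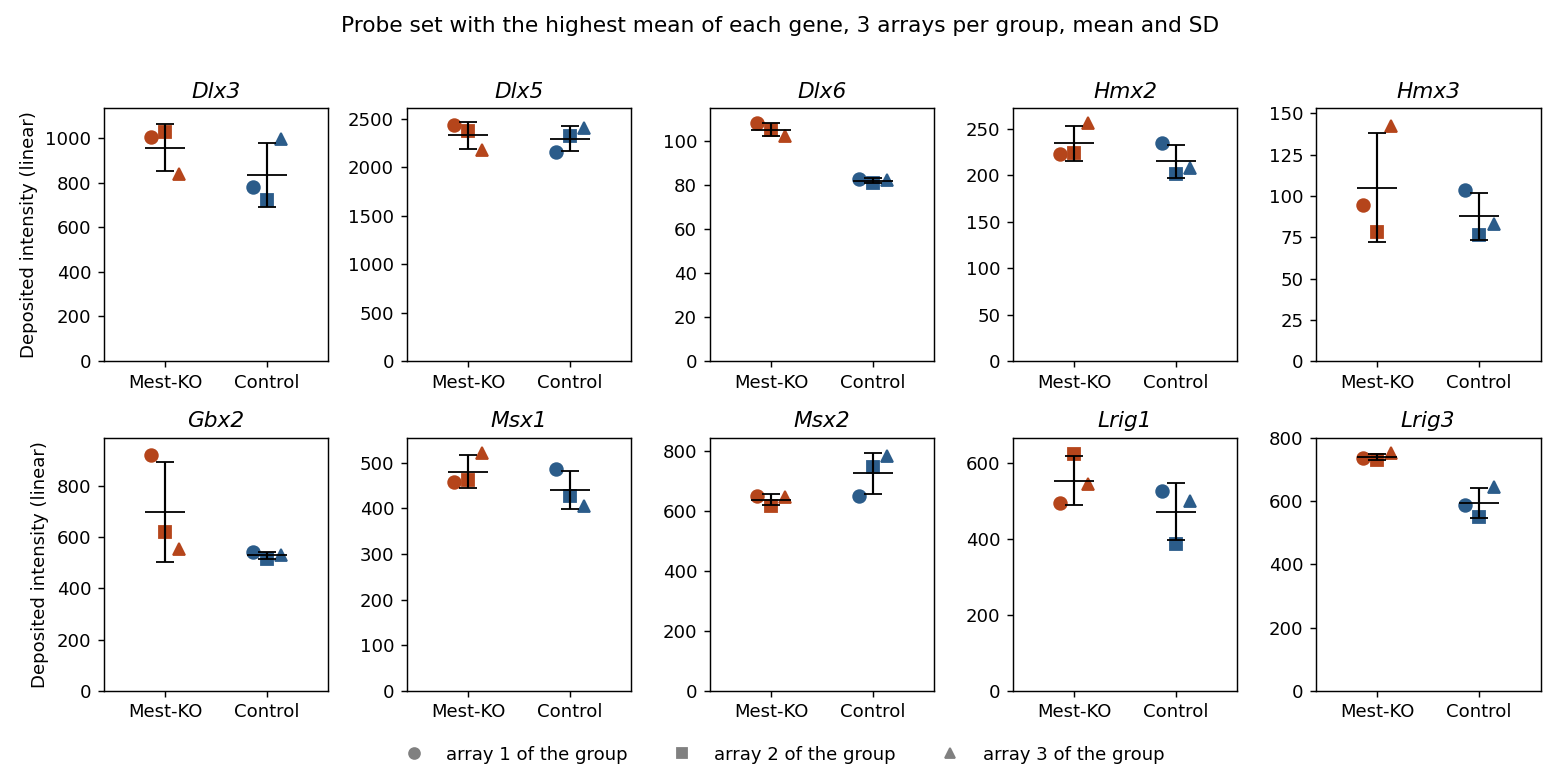
Deposited linear intensity of each gene's brightest probe set on every array, Mest-KO left of control in each panel, with the group mean and SD as bars (n = 3) and axes that start at 0. The groups overlap for Dlx3, Dlx5, Hmx2, Hmx3, Msx1, Msx2 and Lrig1, and the Mest-KO arrays all lie above the control arrays for Dlx6, Gbx2 and Lrig3, as for 5.57% of all genes on this scale.

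Hmx2 and Hmx3, a pair of neighbouring genes formerly called Nkx5-2 and Nkx5-1, encode homeodomain factors that act together in canal and macula development. Hmx2 had intensities of 223, 224 and 256 in Mest-KO and of 235, 202 and 208 in control. The group means were 234 ± 18.9 in Mest-KO and 215 ± 17.6 in control (SD, n = 3 each), a log2 difference of 0.06 (SE 0.0876, limma adjusted p = 0.930) with an interval from a ratio of 0.902 to one of 1.21. Control 1 lay above both Mest-KO 1 and Mest-KO 2, so the groups overlapped. The difference was 0.02 without Mest-KO replicate 3, 0.03 without control replicate 3, 0.11 without control replicate 1 and 0.12 with the deposited scaling. Hmx3 was more variable, with 94.6, 78.5 and 142 in Mest-KO and 104, 76.7 and 83.0 in control. A single array, Mest-KO 3, carried its higher mean. The difference was 0.12 (SE 0.181, limma adjusted p = 0.932), and it was -0.05 without Mest-KO replicate 3. It was 0.05 without control replicate 3, 0.21 without control replicate 1, 0.275 without Mest-KO replicate 2 and 0.23 with the deposited scaling. Mest-KO 3 was also the highest array for Hmx2 and Msx1.

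Gbx2, a gastrulation brain homeobox gene expressed in the dorsal vesicle and needed for the endolymphatic duct, had the largest difference of the 10 genes. Its promoter and that of Msx2 are shown because these are the homeobox genes with the largest differences above and below 0 on their brightest probe set. Promoters are from RefSeq on build GRCm38.p6, 250 bases before to 50 after the start site, read 5′ to 3′ on the strand of the gene. Of the 10 genes, 7 had an entry in that table, and Dlx3, Dlx5 and Dlx6 had none. Capitals mark matches, on either strand, to TAATTA (a core bound by many homeodomains), CAAGTG (a core bound by Hmx and Nkx factors), CACGTG (an E-box) and CCAAT (the CCAAT box). No matches overlapped in the promoters of these genes.
Gbx2, chr1:89931127-89931426, minus strand: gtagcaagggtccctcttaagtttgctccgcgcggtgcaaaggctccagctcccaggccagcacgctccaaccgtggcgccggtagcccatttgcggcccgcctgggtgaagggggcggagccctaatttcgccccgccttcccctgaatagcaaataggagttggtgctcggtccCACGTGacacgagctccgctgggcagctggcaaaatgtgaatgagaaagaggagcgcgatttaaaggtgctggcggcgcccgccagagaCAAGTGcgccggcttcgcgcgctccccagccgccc
Msx2, chr13:53472731-53473030, minus strand: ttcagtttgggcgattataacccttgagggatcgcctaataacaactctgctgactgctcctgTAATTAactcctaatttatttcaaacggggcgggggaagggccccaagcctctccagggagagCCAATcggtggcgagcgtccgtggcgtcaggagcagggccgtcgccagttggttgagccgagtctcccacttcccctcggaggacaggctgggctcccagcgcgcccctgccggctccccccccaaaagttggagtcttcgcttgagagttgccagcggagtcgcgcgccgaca
The Gbx2 promoter held 1 CACGTG and 1 CAAGTG, and the Msx2 promoter held 1 TAATTA and 1 CCAAT. Among 32851 promoters of the same length, 5.3% held TAATTA, 13.6% held CAAGTG, 7.2% held CACGTG and 37.4% held CCAAT.

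Gbx2 intensities were 921, 620 and 553 in Mest-KO and 542, 514 and 531 in control. All Mest-KO arrays lay above all control arrays, but Mest-KO 3 did so narrowly and the SD was 196 in Mest-KO against 13.8 in control. The log2 difference was 0.34 (SE 0.187, limma adjusted p = 0.909), with an interval from a ratio of 0.929 to one of 1.74. Mest-KO 1 carried most of it. Without Mest-KO replicate 1 the difference was 0.13, without Mest-KO replicate 3 it was 0.49, and between the 2 Mest-KO and 2 control pools that held embryos of both sexes it was also 0.13. Mest-KO 1 was the pool without Xist signal, and its mesenchyme markers were low (2322 in sum, against 6650 and 4391 in the other Mest-KO pools). The part of either in the Gbx2 value was not tested.

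Msx1 and Msx2 encode related homeodomain repressors and are expressed at many sites of BMP signalling, among them cranial mesenchyme and the roof plate of the hindbrain as well as the vesicle. Msx1 on its bright probe set (1448601_s_at) had intensities of 457, 461 and 522 in Mest-KO and of 487, 427 and 406 in control. These overlapped, with a log2 difference of 0.11 (SE 0.101, limma adjusted p = 0.909) and an interval from a ratio of 0.910 to one of 1.27. It was 0.04 without Mest-KO replicate 3, 0.05 without control replicate 3 and 0.16 without control replicate 1. Its dim probe set (1417127_at) had 46.1, 82.0 and 83.0 in Mest-KO and 59.5, 36.6 and 56.4 in control. The difference there was 0.29 (SE 0.222, limma adjusted p = 0.970), with Mest-KO 1 inside the control range. It was 0.11 without Mest-KO replicate 2, 0.14 without control replicate 2, 0.46 without Mest-KO replicate 1 and 0.45 with the deposited scaling. Mest-KO 1 was the lowest Mest-KO array for the mesenchyme list too, a value whose part in the Msx1 signal was not tested.

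Msx2 was the one gene of the 10 with a lower mean in Mest-KO. Its bright probe set (1449559_at) had intensities of 650, 615 and 647 in Mest-KO and of 650, 747 and 782 in control. The Mest-KO arrays were tight (637 ± 19.2, SD), and control 1 stood at their level while control 2 and 3 were higher (726 ± 68.4 over the 3). The log2 difference was -0.19 (SE 0.105, limma adjusted p = 0.909), and the interval ran from a ratio of 0.733 to one of 1.04. Without control replicate 1 it was -0.28, with an unadjusted p of 0.0273 and an adjusted p of 0.946. Without control replicate 3 it was -0.13, with an unadjusted p of 0.299 and an adjusted p of 0.954. The other Msx2 probe set (1438351_at) lay below the filter, at 2.26, 3.74 and 2.21 in Mest-KO and at 24.5, 25.3 and 0.145 in control. With the mean of both probe sets the Msx2 difference was -1.07 (unadjusted p 0.126, limma adjusted p = 0.984). Bmp4, which encodes a BMP ligand of the dorsal and sensory epithelium, differed by -0.04 (SE 0.0866).

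The Lrig genes, which encode transmembrane proteins that restrain receptor signalling, are the members in which several probe sets can be set side by side. Lrig1 is best known as a brake on the EGF receptor, and in mice Lrig1 and Lrig3 act partly in each other's place in canal shaping. Their promoters are shown as the pair of relatives whose probe sets gave the most values.
Lrig1, chr6:94700096-94700395, minus strand: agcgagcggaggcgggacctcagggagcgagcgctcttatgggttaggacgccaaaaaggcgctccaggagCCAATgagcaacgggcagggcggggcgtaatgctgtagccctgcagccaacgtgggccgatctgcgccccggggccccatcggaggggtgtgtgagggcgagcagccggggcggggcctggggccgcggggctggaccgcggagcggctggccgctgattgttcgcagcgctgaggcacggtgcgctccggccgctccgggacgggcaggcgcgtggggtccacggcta
Lrig3, chr10:125965969-125966268, plus strand: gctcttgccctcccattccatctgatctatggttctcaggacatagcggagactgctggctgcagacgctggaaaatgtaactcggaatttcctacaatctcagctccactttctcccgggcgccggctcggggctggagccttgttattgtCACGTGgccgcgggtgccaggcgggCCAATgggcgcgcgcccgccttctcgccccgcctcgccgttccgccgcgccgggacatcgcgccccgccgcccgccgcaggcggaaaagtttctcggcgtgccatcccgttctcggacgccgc
Capitals mark the same motifs as above. Each promoter held 1 CCAAT, and that of Lrig3 also held 1 CACGTG, which lay at bases -98 to -93 from the start site.

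Lrig3 was the gene with the smallest p of the 10. Its bright probe set (1430554_at) had intensities of 737, 731 and 752 in Mest-KO and of 588, 550 and 644 in control. The Mest-KO arrays lay within a narrow band above all controls, at 740 ± 10.6 against 594 ± 47.3 (SD, n = 3 each). The log2 difference was 0.31 (SE 0.0910), a ratio of 1.24 with an interval from 1.06 to 1.44, and limma gave an unadjusted p of 0.0138 and an adjusted p of 0.896. It therefore did not pass the test over all genes, among which it had rank 191 by p. With an array left out the difference ran from 0.27 to 0.38, and its unadjusted limma p from 0.00808 to 0.0536. Between the pools with both sexes the difference was 0.28 (unadjusted limma p 0.0864). The gene's difference was 0.34 with the mean of its probe sets (unadjusted limma p 0.064) and 0.45 with the most variable one (0.184).

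The other probe sets of Lrig3 lay on the same side of 0. The second (1430555_s_at) had 429, 434 and 488 in Mest-KO and 374, 337 and 409 in control, again without overlap, as did 4.18% of all probe sets, and differed by 0.25 (SE 0.112, limma adjusted p = 0.970). Its number is next to that of the bright one, and these 2 cannot be taken as independent readings of the gene. The third (1429368_at) had 106, 96.6 and 195 in Mest-KO and 114, 57.8 and 97.5 in control, with a difference of 0.45 (SE 0.302, limma adjusted p = 0.970). Here the groups overlapped and Mest-KO 3 carried the mean, since the difference was 0.18 without Mest-KO replicate 3. It was 0.23 without control replicate 2.

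Of the Lrig1 probe sets, 2 lay above 0 and the other was close to 0. The bright one (1449893_a_at) had intensities of 494, 622 and 544 in Mest-KO and of 527, 385 and 500 in control, with a log2 difference of 0.22 (SE 0.144, limma adjusted p = 0.909). The second (1434210_s_at) followed it closely, with 454, 634 and 561 in Mest-KO and 475, 389 and 498 in control, and differed by 0.24 (SE 0.163). In both, Mest-KO 2 was the highest array and control 2 the lowest, and the groups overlapped. The third (1419928_at) was flat, with 281, 294 and 305 in Mest-KO and 275, 307 and 293 in control, a difference of -0.05 (SE 0.101). Its sign was not fixed, at 0.0085 with the deposited scaling, 0.0386 between the pools with both sexes and 0.0104 without control replicate 2. The bright probe set differed by 0.10 without control replicate 2, by 0.12 without Mest-KO replicate 2 and by 0.30 without Mest-KO replicate 1. The second differed by 0.13 without Mest-KO replicate 2, by 0.15 without control replicate 2 and by 0.38 without Mest-KO replicate 1. Mest-KO 2 also had the highest sum of mesenchyme markers of all 6 arrays, 6650, and control 2, with 2915, was the pool without Eif2s3y signal. The part of these in the Lrig1 value was not tested. Lrig2, the third gene of the family, had 1892, 1766 and 1996 in Mest-KO and 1635, 1629 and 1735 in control on its bright probe set, a difference of 0.18 (SE 0.0896, limma adjusted p = 0.909).

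**Figure D3:**
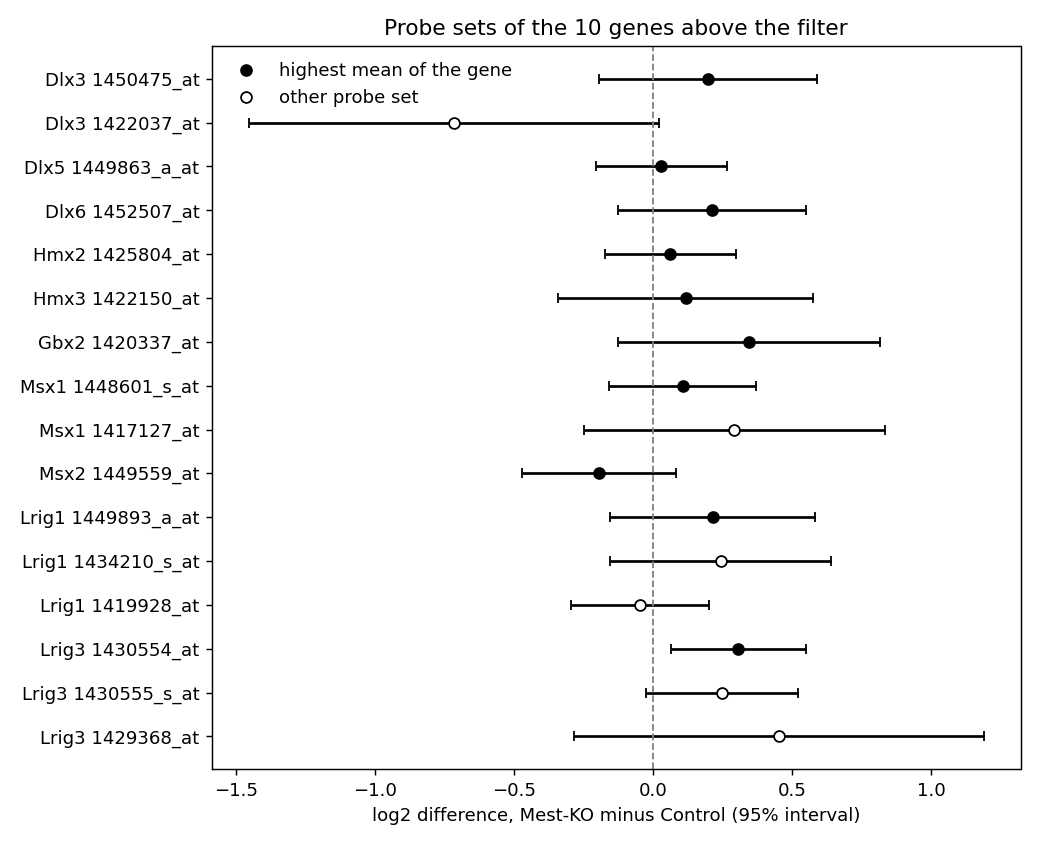
Log2 difference (Mest-KO minus control) with its 95% interval from limma's fit over probe sets for the 16 probe sets above the filter, filled where the probe set is the gene's brightest. The interval of Lrig3 1430554_at, from 0.06 to 0.55, lies above 0 before adjustment for multiple tests, and the other 15 include 0.

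Seen array by array, the 10 genes did not move as a block. Within Mest-KO, replicate 1 was highest for Gbx2, Dlx5 and Dlx6, replicate 2 for Lrig1 and Dlx3, and replicate 3 for Hmx2, Hmx3, Msx1, Msx2 and Lrig3, on the normalized scale. Likeness of pattern was measured as the root mean square difference of 2 genes' centred log2 values over the 6 arrays, where a flat gene is close to all other flat genes and all genes share the scaling of each array. Seen from Hmx3, Hmx2 had rank 354 of 12461 other genes at a difference of 0.161, while from the flatter Hmx2, Hmx3 had rank 6197. Seen from Dlx6, Dlx5 had rank 941 at 0.143, while from the flatter Dlx5, Dlx6 had rank 5142. Seen from Lrig3, Lrig1 had rank 1210 at 0.149, and from Lrig1, Lrig3 had rank 998. Msx1 and Msx2 were the least alike of the 4 pairs at 0.221, with rank 7117 for Msx1 seen from Msx2 and 8226 for Msx2 seen from Msx1. The genes closest to Dlx5 were Spata13 (0.0174) and Mdc1 (0.0191), those closest to Hmx3 were Lpin1 (0.0492) and Tbc1d25 (0.0607), and those closest to Lrig3 were Lpin2 (0.0367) and Ccdc14 (0.0433).

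**Figure D4:**
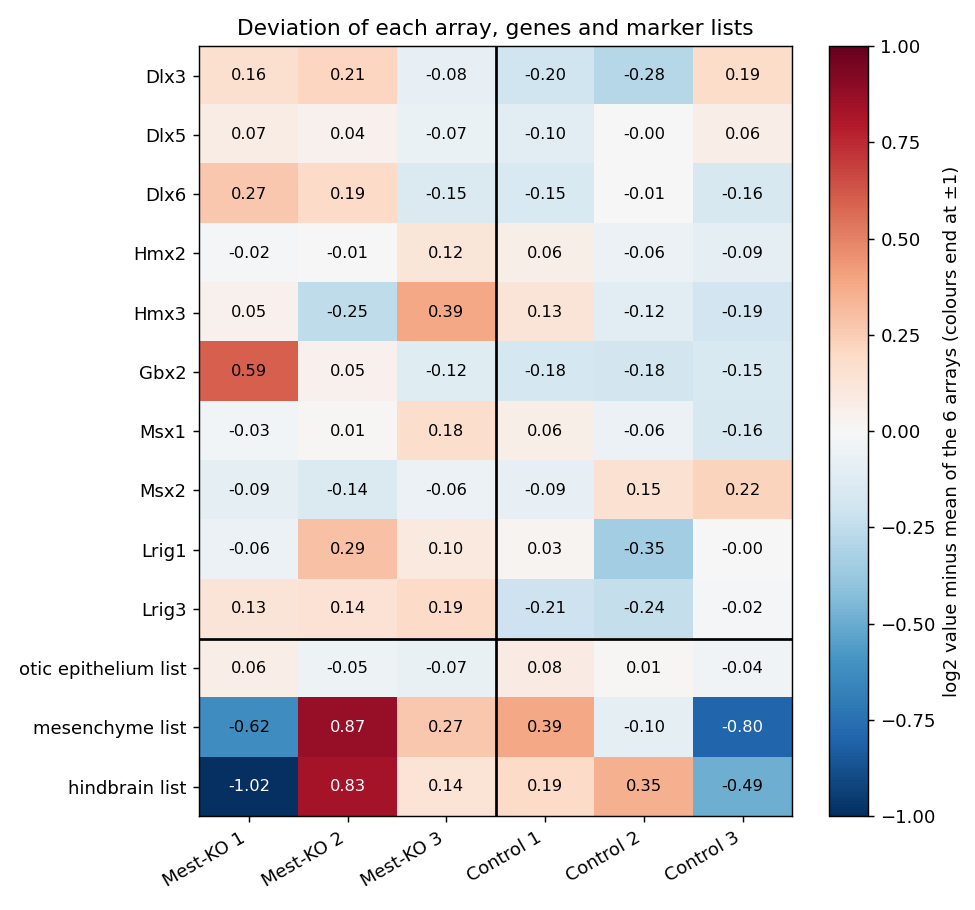
Normalized log2 value of each array minus the mean of the 6 arrays, for the 10 genes and for the mean of 3 marker lists, with Mest-KO arrays left of the controls. The mesenchyme list reaches 0.87 on Mest-KO 2 and -0.80 on control 3, and the hindbrain list 0.83 on Mest-KO 2 and -1.02 on Mest-KO 1. Among the 10 genes Gbx2 on Mest-KO 1 deviates most, by 0.59.

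Markers of tissues that lie beside the vesicle varied between pools of the same group. Of the mesenchyme list, 10 of 12 genes tested were above 0 and 0 passed over all genes, with a median log2 difference of 0.43 beside -0.003 for all genes. Snai2, a transcription factor gene of mesenchyme and neural crest, had the smallest unadjusted limma p of the list, 0.00363. Its log2 difference was 0.56 (SE 0.124, limma adjusted p = 0.660). Its intensities were 622, 731 and 637 in Mest-KO and 510, 439 and 390 in control. This range is narrow beside the list sums, 2322, 6650 and 4391 in Mest-KO and 4493, 2915 and 1777 in control. The groups overlapped in those sums but not in Snai2, where Mest-KO lay higher, as for 5.57% of all genes in deposited intensity. Whether Snai2 reads the amount of mesenchyme was not tested. Pou3f4, a periotic mesenchyme gene, was at 13.6 on Mest-KO 1 and at 132 and 111 on the other Mest-KO arrays. In control it was at 79.4, 81.2 and 64.0, and its log2 difference was -0.43 (SE 0.763). The hindbrain and roof plate list summed to 315, 1606 and 1003 in Mest-KO and to 1020, 730 and 343 in control, with 0 of 6 genes tested passing. Olig3, Atoh1 and Wnt1 of this list lay below the filter, while Zic1, Zic2, Pax3, Lmx1b, Wnt3a and Egr2 lay above it. The surface ectoderm list summed to 664, 1329 and 773 in Mest-KO and to 654, 687 and 679 in control, with 0 of 4 passing. Krt5, Krt14, Tfap2b and Grhl3 of this list lay below the filter, while Krt15, Trp63, Tfap2a and Wnt6 lay above it. The otic epithelium list summed to 51044, 47278 and 46697 in Mest-KO and to 51801, 52938 and 52690 in control, with 0 of 10 passing and a median difference of -0.03. The part of these tissues in the values of the 10 genes was not tested.

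Related genes were also without calls. Of the relatives Dlx1, Dlx2, Dlx4, Dlx6os1, Hmx1, Gbx1, Msx3 and Lrig2, 6 of 8 passed the filter, 0 passed the test, 4 lay above 0 and 2 below, and the median difference was 0.16. Dlx2, the bright neighbour of Dlx1, had 3509, 3942 and 3824 in Mest-KO and 3111, 3867 and 3443 in control, a difference of 0.14 (SE 0.101), and Dlx4 differed by 0.46 (SE 0.341) at intensities near the filter. In a list of 30 signalling and transcription factor genes of the dorsal vesicle and canals, 24 were tested, 0 passed, 12 lay above 0 and 12 below, and the median was 0.001. Id3, an immediate target gene of BMP signals, differed by -0.18 (SE 0.0858), while its relatives Id1 and Id2 differed by -0.02 (SE 0.110) and 0.07 (SE 0.108). Has2, which encodes a hyaluronan synthase used in canal outgrowth, differed by 0.42 (SE 0.236), and the Wnt target gene Sp5 by 0.82 (SE 0.136). Sp5 had an unadjusted p of 0.000804 and a limma adjusted p of 0.455. Axin2, a general target gene of Wnt signals, had 1876, 1757 and 1714 in Mest-KO and 1720, 1695 and 1970 in control, a difference of -0.01 (SE 0.0950). Ntn1, which Lrig3 limits in canal shaping, differed by -0.25 (SE 0.160), with 354, 537 and 440 in Mest-KO and 506, 500 and 532 in control. Axin2, Ntn1, Bmp4, Id1, Id2, Oc90, Pou3f4, Dlx6os1, Xist and Eif2s3y lie outside the rule for named genes and were picked with their values known.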

How the data were processed

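The labels' protocols give a dispase digestion (30 min, 37 °C) that freed the vesicle, after which biotin-labelled cRNA from 300 ng of total RNA was hybridised to Affymetrix mouse arrays. Expression Console 1.1 (Affymetrix) is the one program named, per the submitters' processing notes. The authors deposited 1 linear intensity per probe set and array, and the values show a shared trimmed mean of 500 (2% left out at either end). How probes were summarised and corrected for background is not stated there, nor are slides or scan times, and detection calls were not used here.

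Of 45101 probe sets, 64 were controls, 34945 had 1 gene symbol and 932 several. Symbols were updated through RefSeq gene identifiers. Values below a floor of 1 were raised to it before the log2, and arrays were quantile normalized. The filter kept probe sets with a mean above the 40th percentile (an intensity of 34.4), which left 27022 probe sets and, with each gene read from its probe set of highest mean, 12462 genes. The groups were compared with limma 3.58.1 under R 4.3.3, by lmFit and eBayes with neither a trend nor a covariate, with Benjamini-Hochberg adjustment at 0.05 over genes and, separately, over probe sets. In the text, values for a gene's brightest probe set are from the gene fit and others from the probe set fit. The plot of probe set intervals uses the probe set fit throughout. The steps were tested on simulated data. Figures were drawn with matplotlib 3.10.9.

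The 10 genes and the lists were chosen with earlier results of these data known. Named were the 10 genes, Tbx1, up to 3 genes of smallest p per list, the 2 genes closest in pattern to Dlx5, Hmx3 and Lrig3, and genes said to be picked with their values known. The labels call arrays of a group biological replicates, and between 2 arrays at most 1 probe set had an equal value. Litters are not named, so p-values measure the spread between these pools. Alternatives were other filters, the deposited scaling, a floor at 16, trend, array weights, a replicate block, the mean or the most variable of a gene's probe sets, a threshold of 0.10, leaving out each array, and the pools with both sexes. Fits on fewer arrays kept the features chosen on all 6.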

Additional observations from a re-analysis of the deposited data

How the results depend on the processing

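None of the 10 genes or their 17 probe sets passed at an adjusted p under 0.05 in any alternative in which it was tested. The smallest adjusted p was 0.556 (Lrig3 without Mest-KO replicate 1). The dim probe set Msx2 1438351_at was tested only without a filter. Another filter, the trend and the replicate block left the log2 differences as they were, so no direction could change there. A gene's brightest probe set was counted both as gene and as probe set. With these included, 386 of 395 values of genes and probe sets over the alternatives kept their direction, so this count does not measure stability. The 9 that did not were Dlx3 with the mean of its probe sets (-0.26) and with the most variable one (-0.72), Lrig1 1419928_at with the deposited scaling (0.0085), between pools of both sexes (0.0386) and with an array left out (-0.107 to 0.0104), and, as gene and probe set, Hmx3 (-0.0452 to 0.275) and Dlx5 (-0.0143 to 0.0715) with an array left out. The cause was not tested. The count of genes called, 0 in the main setting, was 7 with the stricter filter (60th percentile, so fewer genes tested), 13 with the trend, 1 with the most variable probe set and 7 at a threshold of 0.10. The count of probe sets called, also 0, was 1 without a filter, 9 with the stricter filter, 14 with the trend and 1 at a threshold of 0.10. With an array left out both counts were 0. Under the stricter filter Dlx6 and Hmx3 were not tested, nor were the probe sets Msx1 1417127_at, Dlx3 1422037_at and Lrig3 1429368_at. With the most variable probe set Msx2 gave no value. With the replicate number as a block, 0 genes and 0 probe sets passed. Whether the numbers pair the pools is not known. Same-numbered arrays deviated from their group means with correlations across genes of -0.109, -0.008 and -0.007, and differently numbered ones with -0.100 to 0.110. The deviations within a group of 3 arrays sum to 0, so these values cannot decide whether pools were paired. With 3 arrays per group, a difference below about 0.29 in log2 units was mostly not resolved even before adjustment for multiple tests. Larger differences did not pass after adjustment either, among them Gbx2 at 0.34 and Sp5 at 0.82.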
